A study of Mus musculus with 8 samples.

Results

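The subunits of respiratory complex I that are encoded in the nucleus were followed in cultured mouse hippocampal neurons with a CNOT7 knockdown. Members were the entries of the deposited gene table whose symbol begins with Nduf followed by a, b, c, s or v and a digit, or with Ndufab1. The Ndufaf assembly factors are not covered by that pattern. This gave 38 genes of 23845 in the table. Of these, 37 had a mean of at least 1 TPM (a transcript's share of its library per unit of length, scaled to a fixed total) over the 8 libraries and were tested. The exception was Ndufa4l2, which was at 0 to 2 TPM in every library. Poly(A) RNA was bound to poly(U) agarose, and either all of it was eluted at 75 °C or a wash at 50 °C first removed tails under 50 nt. The 4 groups of 2 libraries were long-tail RNA of neurons given lentivirus with a CNOT7 hairpin, total poly(A) RNA of the same kind of neurons, and long-tail and total RNA of neurons given a scrambled hairpin. Below, genotype means only the hairpin that the neurons were given. All cultures came from mouse embryos at day 19 and received virus after 13 to 15 days in vitro. RNA was taken at 17 to 19 days. The strain is not stated in the labels, and neither is whether libraries came from separate cultures, so p-values measure only the spread between these samples, which may be technical.

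Complex I, the NADH:ubiquinone oxidoreductase, is the entry point of electrons from NADH into the respiratory chain and pumps protons across the inner mitochondrial membrane. Its N module oxidises NADH, its Q module reduces ubiquinone, and its proximal and distal membrane arms carry the proton pumps. Neurons depend on it for the ATP that restores ion gradients. CNOT7 is a deadenylase of the CCR4-NOT complex, which shortens poly(A) tails, and the comparisons ask whether subunit mRNAs differed after its loss, in all poly(A) RNA or in the long-tail fraction.

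The targeted mRNA was low in the libraries labelled knockdown. Cnot7 was at 9 and 11 TPM in knockdown long-tail libraries, against 28 and 31 TPM in scrambled long-tail libraries. It was at 12 and 16 TPM in knockdown total libraries, against 42 and 36 TPM in scrambled total libraries, with no overlap in either fraction. The authors' deposited table gives log2 fold changes that, turned to knockdown over scrambled, are −1.18 in long-tail RNA (adjusted p = 1.02e-05) and −1.12 in total RNA (adjusted p = 3.96e-05). The limma fit used here for the members called 0 of all genes in either fraction, so Cnot7 did not pass it. The smallest limma adjusted p of any gene in that fit was 0.0593 in long-tail and 0.0669 in total RNA. Not passing that fit therefore does not show that an mRNA was unchanged. The 8 neuronal markers examined were all present, from 89 TPM (Map2) upward, and Snap25 was at 1126 TPM or more in every library. Astrocyte markers were present too, summing to 3014 to 5295 TPM in knockdown and 3679 to 5357 TPM in scrambled libraries. The 8 oligodendrocyte-lineage markers summed to 862 to 1126 TPM in knockdown and 1340 to 1770 TPM in scrambled libraries, with no overlap. The microglial genes Cx3cr1, Aif1 and Tmem119 and the endothelial genes Cldn5 and Pecam1 were at 0 in all 8 libraries. The other genes of those lists were not. C1qa, C1qb, Csf1r and Flt1 reached at most 5 TPM. The mural genes Rgs5, Pdgfrb and Acta2 were at 1 to 8, 7 to 16 and 138 to 318 TPM. In bulk RNA, fewer cells of a type and less RNA per cell cannot be told apart. The ribosomal RNA precursor Rn45s took 2.90% of TPM in knockdown long-tail library 2 and 6.07% to 18.6% in the other 7 libraries. TPM sum to nearly the same total in each library, so such differences shift every other gene.

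Subunit mRNAs were unequal in level although the enzyme holds most subunits in equal number. The mean over the 8 libraries spanned a 14.1-fold range among the 37 tested members, with a median of 228 TPM. It ran from 69.8 TPM for Ndufs1 to 985.8 TPM for Ndufa4. Without Ndufa4 it spanned a 13.4-fold range, up to 935.4 TPM for Ndufa3. Ndufa4, which carries a complex I name but is now assigned to complex IV, was at 779 and 1311 TPM in knockdown long-tail, 845 and 679 TPM in knockdown total, 1113 and 1317 TPM in scrambled long-tail and 875 and 967 TPM in scrambled total libraries. Ndufa3, a small subunit of the proximal membrane arm, was at 813 and 1410, 929 and 717, 911 and 1085, and 788 and 830 TPM in the same groups in that order. These 2 genes stood above all others in every library, and their own ranges overlapped. Next came Ndufc2 (468.5 TPM), Ndufb4 (461 TPM), Ndufa12 (424 TPM) and Ndufb8 (419 TPM), whose libraries overlapped with one another.

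At the low end lay 3 genes whose libraries overlapped. Ndufs1, the largest subunit and a carrier of iron-sulphur clusters in the N module, was at 50 and 61 TPM in knockdown long-tail, 71 and 67 TPM in knockdown total, 59 and 85 TPM in scrambled long-tail and 77 and 88 TPM in scrambled total libraries. Ndufs4, an accessory N-module subunit mutated in Leigh syndrome, was at 60 and 95, 66 and 62, 68 and 87, and 65 and 70 TPM in those groups. Ndufa11, a membrane-arm subunit, was at 77 and 106, 71 and 55, 80 and 87, and 73 and 71 TPM. Above them were Ndufa9 (113 TPM) and Ndufv1 (120.5 TPM), and the 7 catalytic core subunits encoded in the nucleus together had a median of 199 TPM. The complex I subunits encoded in mitochondrial DNA had no entry in the gene table. The order of the members was kept between libraries, with Spearman's rho from 0.915 to 0.979 over the 28 pairs of libraries (n = 37 genes, a description of values that share libraries). By part of the enzyme, median levels were 186 TPM for the 8 N-module genes, 215 TPM for the 8 Q-module genes, 271 TPM for the 9 genes of the proximal membrane arm and 245 TPM for the 11 genes of the distal membrane arm.

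**Figure D1:**
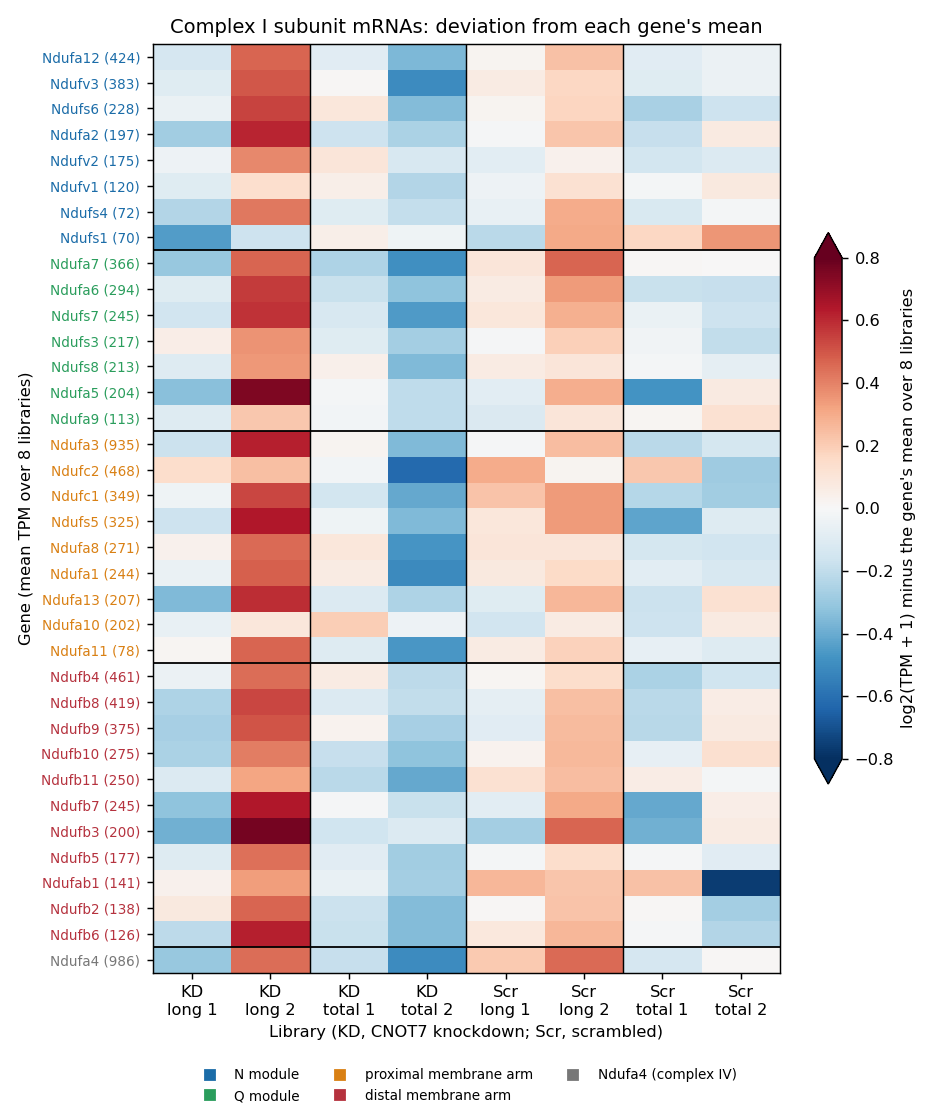
Each row is 1 of 36 of the 37 tested members, grouped by part of the enzyme, and each column 1 library. Colour gives log2(TPM + 1) minus the gene's mean over the 8 libraries. Knockdown long-tail library 2 is the highest of the 8 for 32 of the 37 members and knockdown total library 2 the lowest for 24.

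The members moved together from library to library, including between libraries of the same group. In knockdown long-tail library 2, 32 of 37 members had their highest value of the 8 libraries, and every member was above its value in knockdown long-tail library 1, by a median of 1.51-fold (range 1.07 to 2.22). Over the 6810 genes averaging 20 TPM or more that ratio had a median of 1.10. The widest ratios were those of Ndufb3, a distal membrane-arm subunit (327 TPM in library 2 and 147 TPM in library 1), and Ndufa5, a Q-module subunit (331 and 156 TPM). In knockdown total library 2, 24 members had their lowest value of the 8, and 36 of 37 were below knockdown total library 1 (median ratio 0.848). Summed over the 38 members, knockdown long-tail libraries held 9222 and 14236 TPM, knockdown total libraries 9821 and 8055 TPM, scrambled long-tail libraries 10547 and 12152 TPM and scrambled total libraries 9359 and 9755 TPM. As a share of TPM with Rn45s left out, these sums were 1.13% and 1.47%, 1.05% and 0.940%, 1.27% and 1.31%, and 1.01% and 1.06%. Without Rn45s the 2 fractions did not overlap in either genotype, whereas knockdown and scrambled libraries overlapped in long-tail RNA and in total RNA. The subunits of complexes II to V did the same from library to library, with median deviations of −0.16 and 0.44 in the knockdown long-tail libraries, against −0.11 and 0.47 for the complex I members. With Rn45s left out, the member share in knockdown long-tail library 2 still exceeded that in library 1, at 1.47% against 1.13%.

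**Figure D2:**
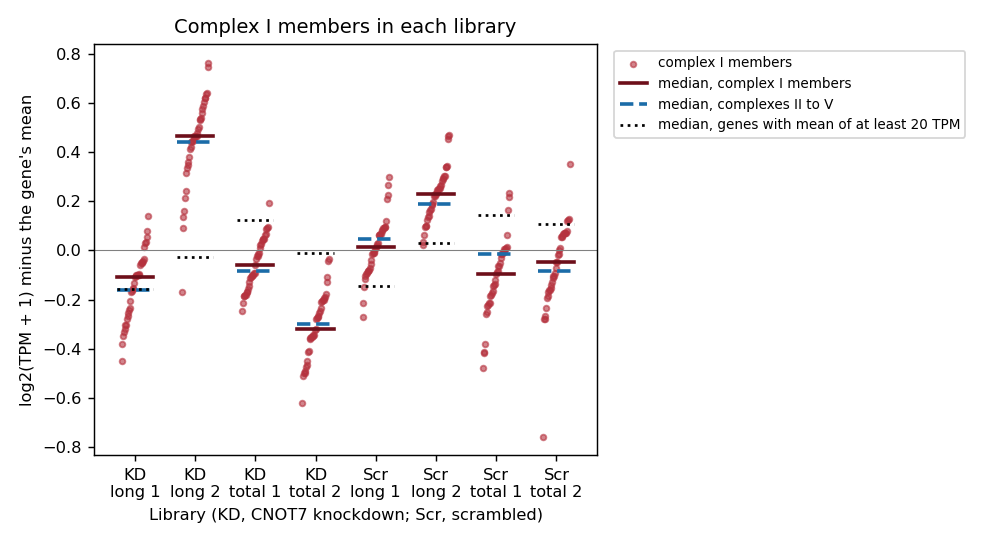
The y axis gives log2(TPM + 1) minus each gene's mean over the 8 libraries, and points are the 37 tested members in each library. Lines are medians of the members, of complexes II to V and of all genes averaging 20 TPM or more. The member median is 0.47 in knockdown long-tail library 2 and −0.32 in knockdown total library 2.

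The promoters of the members were described separately, and no link between their motifs and the values above was tested. RefSeq promoter windows (GRCm38.p6, 250 bases before to 50 after the start) matched 33 of the 38 members in 35 windows, while Ndufa2, Ndufa4l2, Ndufb9 and Ndufs1 were among those with no entry. The motif of NRF1, an activator of nuclear genes for respiration (GCGCA, any base, then GCGC, searched on both strands), lay in 8 of the 35 windows (22.9%), against 4.6% of all 32851 windows. That of YY1 (AAGATGGCG) lay in 5 (14.3%), against 1.4%. Shares for other motifs were 2.86% against 3.89% for the ETS motif (ACTTCCGG), 0 windows against 0.423% for the estrogen-related receptor motif (TCAAGGTCA), and 14.3% against 13.6% for TATAAA. Shares count windows with at least 1 match, so overlapping matches in a window count once, and a match of letters is not a binding site. Overlapping windows of 1 gene count separately, as for Ndufa5 with the NRF1 motif and Ndufa7 with TATAAA. By gene, the NRF1 motif lay in 7 of 33 members and TATAAA in 4. The promoter of Ndufb4, the member with the most NRF1 matches, is shown with that of Ndufs6, which alone held both motifs, and that of Ndufc1, which had the largest long-tail difference in scrambled neurons. All lie on the minus strand and are given 5′ to 3′ with NRF1 and YY1 matches in capitals, none of which overlap. They cover chr16:37654319-37654618 (3 NRF1 matches), chr13:73328433-73328732 (1 NRF1, then 1 YY1) and chr3:51408906-51409205 (1 YY1), in that order.
Ndufb4: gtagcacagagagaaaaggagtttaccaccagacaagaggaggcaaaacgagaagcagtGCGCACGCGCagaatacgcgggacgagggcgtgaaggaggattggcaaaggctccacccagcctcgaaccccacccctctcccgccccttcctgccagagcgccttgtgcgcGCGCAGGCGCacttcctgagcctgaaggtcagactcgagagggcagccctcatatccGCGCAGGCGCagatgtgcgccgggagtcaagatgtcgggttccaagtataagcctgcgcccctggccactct
Ndufs6: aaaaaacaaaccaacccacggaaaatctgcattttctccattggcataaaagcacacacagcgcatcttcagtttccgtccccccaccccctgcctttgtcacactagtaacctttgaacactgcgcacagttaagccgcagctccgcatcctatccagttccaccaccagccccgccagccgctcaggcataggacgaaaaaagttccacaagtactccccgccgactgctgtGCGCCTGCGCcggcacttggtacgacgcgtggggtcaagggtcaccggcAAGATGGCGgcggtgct
Ndufc1: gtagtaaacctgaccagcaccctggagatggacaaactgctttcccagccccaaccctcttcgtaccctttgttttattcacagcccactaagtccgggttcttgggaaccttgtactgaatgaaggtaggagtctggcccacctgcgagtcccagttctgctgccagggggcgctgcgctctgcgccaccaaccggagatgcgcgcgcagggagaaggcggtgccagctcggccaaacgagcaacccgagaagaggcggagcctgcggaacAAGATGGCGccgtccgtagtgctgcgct

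In total poly(A) RNA no subunit mRNA passed the test between knockdown and scrambled neurons. Of the 37 tested members 27 were lower and 10 higher, with a median log2 difference of −0.11 (range −0.37 to 0.13) beside −0.07 over all genes. Of all genes 61.3% were lower. The limma fit over 13681 genes called 0 members (smallest adjusted p = 0.908), none with an unadjusted p under 0.05 (0 of 37). Of all genes, 0% were called and 6.34% had an unadjusted p under 0.05. The 95% confidence interval of a member reached from 0.37 (Ndufv1) to 1.09 log2 units either side of its difference, with a median of 0.60. The summed oligodendrocyte-lineage markers given above were also lower in the knockdown libraries. All 6 astrocyte markers had lower means in knockdown total RNA (median −0.25, 3 of 6 without overlap, 0 called by limma), with sums of 5295 and 3270 TPM, against 5357 and 4175 TPM in scrambled total libraries. The part of either cell type in these differences was not tested. In the N module, 2 genes were higher and 6 lower, in the Q module 1 and 7, in the proximal arm 3 and 6 and in the distal arm 4 and 7.

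Libraries of the 2 genotypes did not overlap in total RNA for 7 of 37 members lower in knockdown, a share close to the 20.1% of all genes. For members higher in knockdown the count was 0, against 8.68% of all genes. The widest difference was that of Ndufa7, an accessory subunit of the Q module, at 301 and 254 TPM in knockdown total libraries, against 359 and 358 TPM in scrambled total libraries (log2 difference −0.37, SE 0.28, limma adjusted p = 0.951). Ndufb11, a distal-arm subunit encoded on the X chromosome, was at 213 and 186 TPM in knockdown, against 258 and 244 TPM in scrambled libraries (−0.33, SE 0.17). Ndufb10, a distal-arm subunit facing the intermembrane space, was at 238 and 217 TPM, against 259 and 296 TPM (−0.28, SE 0.238). For each of these 3 genes both knockdown libraries lay below both scrambled libraries. The other 4 were Ndufa12 (392 and 325 TPM in knockdown, 393 and 404 TPM in scrambled libraries), Ndufa9 (111 and 98 TPM, against 114 and 123 TPM), Ndufa4 and Ndufs1. Ndufc2 had a log2 difference of −0.29 (SE 0.267), but its libraries overlapped (453 and 298 TPM in knockdown, 535 and 378 TPM in scrambled).

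The members highest after knockdown in total RNA were within their own spread. Ndufb4, a distal-arm subunit, was at 477 and 395 TPM in knockdown total libraries, against 383 and 408 TPM in scrambled total libraries (log2 difference 0.13, SE 0.198). Ndufa10, a proximal-arm subunit of the nucleoside kinase fold, was at 230 and 195 TPM, against 179 and 211 TPM (0.12, SE 0.152). Ndufv2, which holds an iron-sulphur cluster of the N module, was at 186 and 159 TPM, against 157 and 161 TPM (0.11, SE 0.17). The groups overlapped for all 3. Ndufab1, the mitochondrial acyl carrier protein, was at 132 and 114 TPM in knockdown and at 162 and 81 TPM in scrambled total libraries (0.10, SE 0.326), the widest gap as a ratio between the 2 scrambled total libraries among the members. Without knockdown total library 2 the member median was 0.01 with 21 of 37 members higher, and without knockdown total library 1 it was −0.22 with 5 of 37 higher.

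In long-tail RNA the direction of the knockdown difference turned with the library used. With all libraries, 27 of 37 members were higher and 10 lower, with a median log2 difference of 0.04 (range −0.35 to 0.20) beside −0.10 over all genes, of which 35.7% were higher. By limma 0 members passed (smallest adjusted p = 0.65) and 0 were under an unadjusted p of 0.05, against 0% and 8.72% of all genes. Libraries of the 2 genotypes overlapped for all 37 members, while 26% of all genes did not overlap. With only knockdown long-tail library 1, all 37 members were lower (median −0.29). With only library 2, 36 of 37 were higher (median 0.36), the exception being Ndufs1. The median also turned to −0.07 (12 of 37 higher) without scrambled long-tail library 1, and to −0.02 (15 of 37 higher) with quantile normalization.

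Ndufv2 had the largest positive difference in long tails, at 169 and 227 TPM in knockdown and 164 and 178 TPM in scrambled long-tail libraries (log2 difference 0.20, SE 0.17). Ndufb2, a distal-arm subunit, was at 144 and 189 TPM, against 137 and 160 TPM (0.16, SE 0.185). Ndufs6, a zinc-binding N-module subunit, was at 216 and 326 TPM, against 227 and 252 TPM (0.15, SE 0.242), and Ndufa8, of the proximal arm, at 273 and 366 TPM, against 285 and 286 TPM (0.15, SE 0.227). For all 4, knockdown library 2 lay above both scrambled libraries, while library 1 lay between them for Ndufv2 and Ndufb2 and below both for Ndufs6 and Ndufa8. The lowest were Ndufs1 at 50 and 61 TPM, against 59 and 85 TPM (−0.35, SE 0.205), and Ndufa4 at 779 and 1311 TPM, against 1113 and 1317 TPM (−0.26, SE 0.279). After them came Ndufa7 at 289 and 494 TPM, against 382 and 494 TPM (−0.20, SE 0.28), and Ndufb11 at 229 and 308 TPM, against 269 and 294 TPM (−0.08, SE 0.17).

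**Figure D3:**
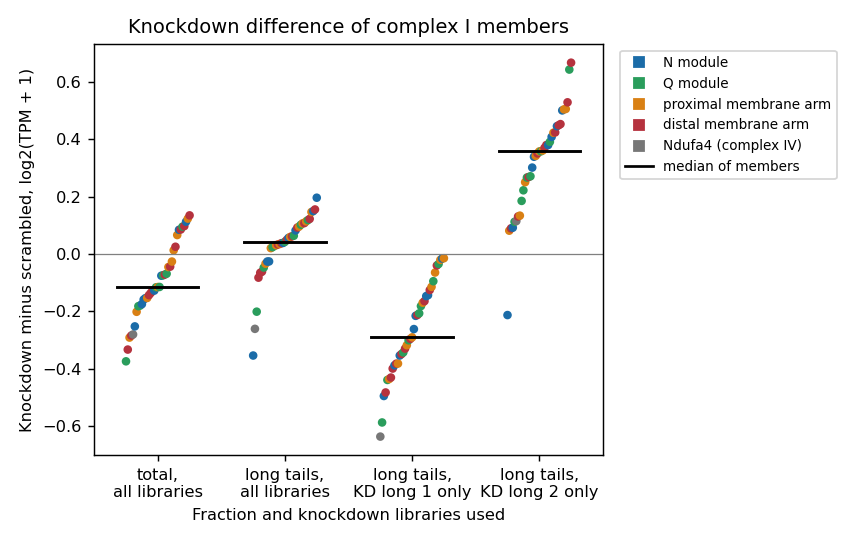
The y axis gives the knockdown minus scrambled difference in log2(TPM + 1) for the 37 members, with bars at their median. Separate columns use a single knockdown long-tail library, with medians of −0.29 for library 1 and 0.36 for library 2.

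Most subunit mRNAs had a higher mean level in long-tail than in total RNA, although none passed the test and most overlapped between fractions in knockdown neurons. Most genes as a whole had a lower one. In knockdown neurons 35 of 37 members were higher in long tails, with a median log2 difference of 0.37 (range −0.32 to 0.53) beside −0.22 over all genes, of which 27% were higher. In scrambled neurons 35 of 37 were again higher, with a median of 0.20 (range −0.21 to 0.54), beside −0.22 over all genes and 23% higher. The 2 differences share no library, but their errors and p-values come from 1 fit over all 8 libraries. No single member passed: limma called 0 in knockdown neurons (smallest adjusted p = 0.158; unadjusted p under 0.05 for 4) and 0 in scrambled neurons (smallest adjusted p = 0.378; unadjusted p under 0.05 for 1). Over all genes, 0% were called in either genotype and 26% and 13.2% were under an unadjusted p of 0.05, with 0.921% and 0.263% higher in long tails. The members counted here were all higher. Long-tail libraries lay above total libraries without overlap for 8 members in knockdown neurons and 19 in scrambled neurons, against 4.04% and 4.69% of all genes. They lay below for 1 member in knockdown neurons, Ndufs1, and for 0 in scrambled neurons, against 40% and 39.6% of all genes. Centring on the median of genes with at least 20 TPM shifted the all-gene median to −0.01 in both genotypes, and 36 of 37 members were then higher in each.

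The size in knockdown neurons rested on 1 library. Without knockdown long-tail library 2 the member median was 0.04 with 22 of 37 members higher, though 35 of 37 stayed above the all-gene median of −0.25. Without knockdown long-tail library 1 it was 0.69 with 36 of 37 members higher. In scrambled neurons the median was 0.10 without long-tail library 2 (29 of 37 higher) and 0.30 without long-tail library 1 (37 of 37 higher).

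All parts of the enzyme shared this direction. In knockdown neurons, 7 of 8 N-module, 8 of 8 Q-module, 8 of 9 proximal-arm and 11 of 11 distal-arm genes were higher in long tails, with medians of 0.30, 0.35, 0.43 and 0.33. In scrambled neurons the counts were 7 of 8, 7 of 8, 9 of 9 and 11 of 11, with medians of 0.18, 0.24, 0.22 and 0.25. The 7 core subunits had medians of 0.19 in knockdown and 0.10 in scrambled neurons, and the 29 accessory subunits 0.37 and 0.22.

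Ndufc1, a small single-pass subunit of the proximal arm (chromosome 3, 51404677 to 51408988, minus strand, GRCm38), had the largest difference in scrambled neurons and one close to those of Ndufb2, Ndufa11 and Ndufc2 in knockdown neurons. It was at 333 and 494 TPM in knockdown long-tail libraries, against 308 and 256 TPM in knockdown total libraries (log2 difference 0.53, SE 0.211, adjusted p = 0.189). In scrambled neurons it was at 399 and 432 TPM in long tails, against 291 and 281 TPM in total RNA (0.54, SE 0.211, adjusted p = 0.378), and neither pair of groups overlapped. Its promoter is the third of those shown above.

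Ndufb2 (chromosome 6, 39592574 to 39603382) was at 144 and 189 TPM in long-tail against 121 and 107 TPM in total libraries of knockdown neurons (0.53, SE 0.185, adjusted p = 0.158), and at 137 and 160 against 137 and 113 TPM in scrambled neurons (0.25, SE 0.185). Ndufa11 (chromosome 17, 56717767 to 56722141) was at 77 and 106 against 71 and 55 TPM in knockdown (0.52, SE 0.196) and at 80 and 87 against 73 and 71 TPM in scrambled neurons (0.21, SE 0.196). Its groups overlapped in neither genotype, while those of Ndufb2 met at 137 TPM in scrambled neurons. Ndufc2, a proximal-arm subunit, was at 507 and 544 against 453 and 298 TPM in knockdown (0.51, SE 0.267) and at 566 and 467 against 535 and 378 TPM in scrambled neurons (0.19, SE 0.267), where its groups overlapped.

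In scrambled neurons the next largest were Ndufab1, Ndufs5 and Ndufa4. Ndufab1 was at 166 and 161 TPM in long tails, against 162 and 81 TPM in total RNA (0.51, SE 0.326), so the gap came from a single low total library and the groups overlapped. Ndufs5, a proximal-arm subunit on the intermembrane-space side, was at 337 and 401 TPM, against 236 and 294 TPM (0.48, SE 0.298), and in knockdown neurons at 282 and 493 TPM, against 308 and 247 TPM (0.43). Ndufa4 was at 1113 and 1317 TPM, against 875 and 967 TPM, with no overlap (0.40, SE 0.279).

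The members with little or no long-tail excess had the longest coding sequences. Ndufs1 (chromosome 1, 63143596 to 63176833; coding length 2181 nt) was at 50 and 61 TPM in long tails, against 71 and 67 TPM in total RNA of knockdown neurons (log2 difference −0.32, SE 0.205). In scrambled neurons it was at 59 and 85 TPM, against 77 and 88 TPM (−0.21, SE 0.205), where the groups overlapped. Ndufa10 (coding length 1065 nt) was at 193 and 214 against 230 and 195 TPM in knockdown (−0.06, SE 0.152) and at 181 and 210 against 179 and 211 TPM in scrambled neurons (0.00, SE 0.152). Ndufa9, a Q-module subunit of the short-chain dehydrogenase family (1131 nt), was at 105 and 131 against 111 and 98 TPM in knockdown (0.17, SE 0.154) and at 104 and 121 against 114 and 123 TPM in scrambled neurons (−0.08, SE 0.154). Ndufv1, the NADH-binding core subunit (1392 nt), was at 112 and 132 against 124 and 102 TPM in knockdown (0.11, SE 0.148) and at 117 and 131 against 119 and 127 TPM in scrambled neurons (0.01, SE 0.148). Among the long coding sequences Ndufv3 differed most from these, an accessory N-module subunit (1404 nt), at 352 and 532 against 380 and 266 TPM in knockdown (0.44, SE 0.253) and at 395 and 423 against 353 and 365 TPM in scrambled neurons (0.19, SE 0.253).

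**Figure D4:**
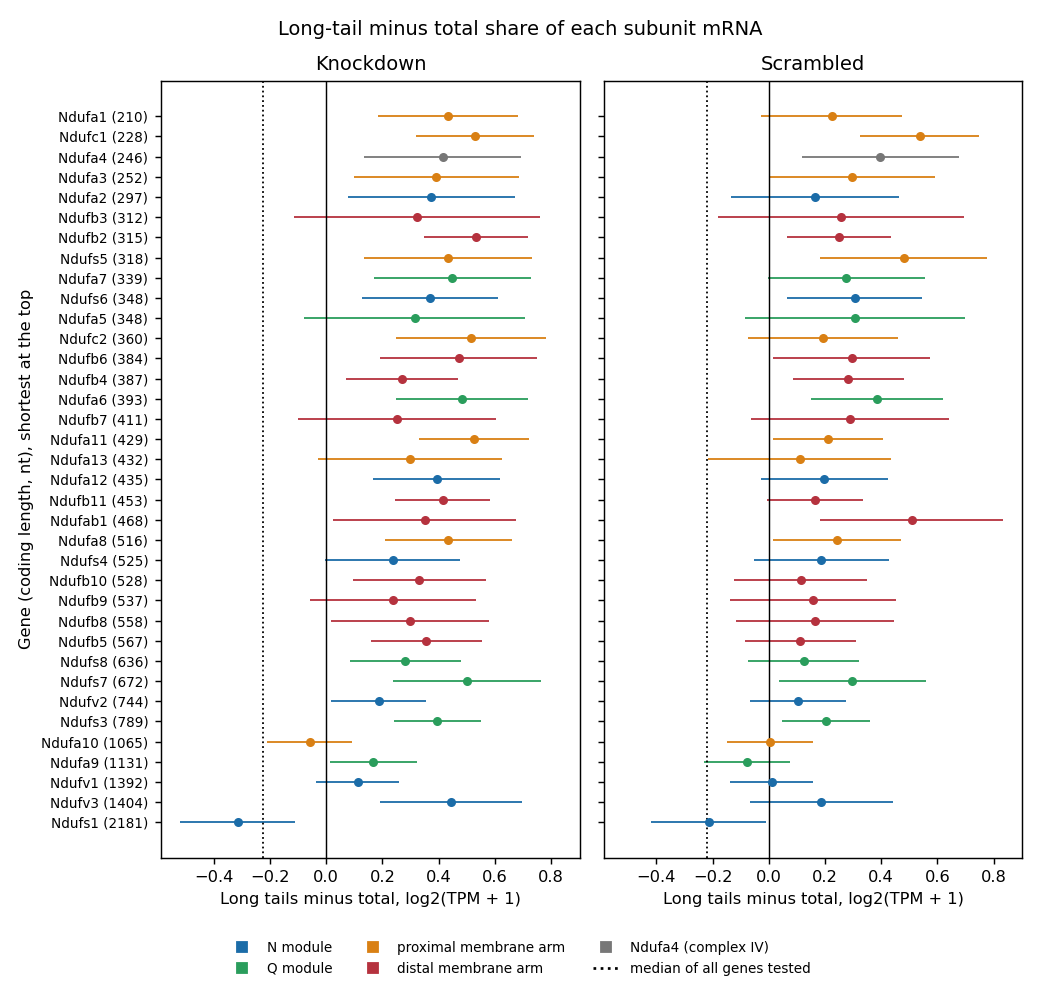
Points give the long-tail minus total difference in log2(TPM + 1) with its SE for 36 of the 37 members, ordered by coding length from 210 nt (Ndufa1) at the top to 2181 nt (Ndufs1) at the bottom. Dotted lines mark the median of all genes tested, −0.22 in each genotype. Of the 37 members, 35 were above 0 in each genotype.

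The members shared short transcripts, which the choice by name did not use. The longest principal transcript of each gene in GENCODE M21 (GRCm38) had a median of 908 nt over the 37 members (419 nt for Ndufa1 to 4371 nt for Ndufb2), beside 3088 nt over 12622 tested genes with one. Median coding lengths were 435 and 1395 nt, 3′ UTR lengths 137 and 1067 nt, and exon counts 4 and 9. The members were spread over 15 chromosomes, with at most 5 on 1. Across the members, the long-tail difference had a Spearman's rho of −0.54 with coding length in knockdown neurons and −0.70 in scrambled neurons (n = 37), and of −0.41 and −0.44 with transcript length. Across the 6481 genes averaging 20 TPM or more, rho with transcript length was −0.82 in both genotypes. These are descriptions over genes that share libraries.

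Genes with short transcripts had higher long-tail minus total differences whether or not they encoded complex I. Of the 479 genes with at least 20 TPM and a transcript under 1000 nt, 96.7% were higher in long tails in knockdown neurons (median 0.32) and 94.8% in scrambled neurons (median 0.24). All 21 members in that class were higher, with medians of 0.41 and 0.28. Without overlap, 32.4% of such genes and 4 of 21 members were higher in knockdown neurons, and 48.2% and 13 of 21 in scrambled neurons. From 1000 to 2000 nt, the 1473 genes had medians of 0.14 and 0.04 and the 12 members 0.29 and 0.12. From 2000 to 4000 nt the genes had medians of −0.17 and −0.21, and the 3 members there (Ndufs1, Ndufa10 and Ndufab1) −0.06 and 0.00. Of those 3, Ndufab1 stood apart from its length class at 0.35 and 0.51. From 4000 nt upward the 1930 genes had medians of −0.60 and −0.44, with 3.3% and 2.3% above 0. The 1 member there, Ndufb2, was at 0.53 and 0.25. Ndufb2 and Ndufab1 owe their long transcripts to annotated 3′ UTRs of 4015 and 2947 nt, and which of their isoforms these neurons use was not analysed here. The part of transcript length in the difference between fractions was not tested.

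**Figure D5:**
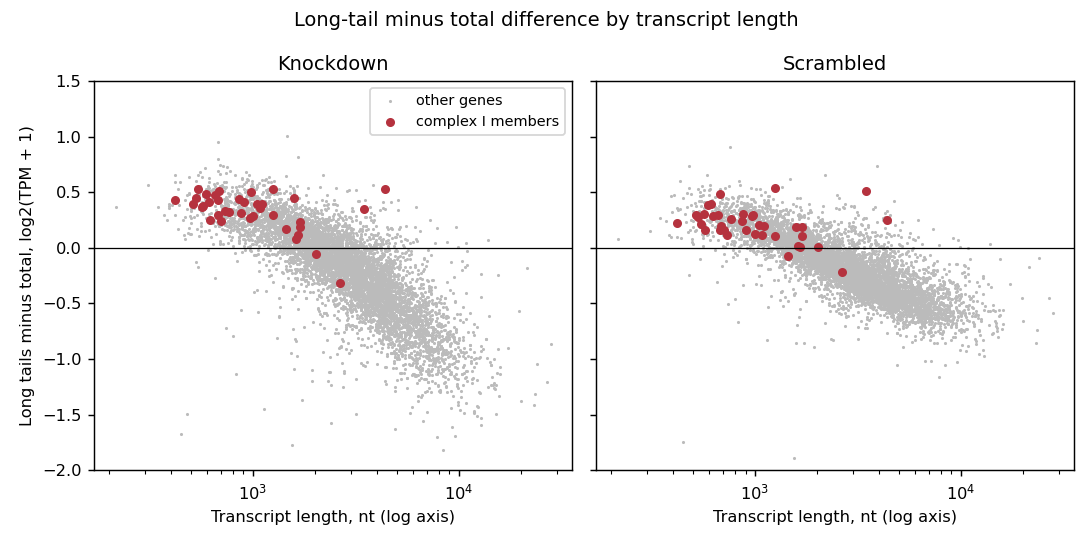
Each point is a gene averaging 20 TPM or more, with transcript length on a log axis and the long-tail minus total difference in log2(TPM + 1) on the y axis, and complex I members in red. Most members sit under 2000 nt, where most other genes are also above 0, and Ndufs1 lies below 0 with genes of its length. Ndufab1 and Ndufb2 lie above 0, where most genes of their length lie below.

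Whether the knockdown difference itself differed between fractions was tested with the interaction, which subtracts the difference between hairpins in total RNA from that in long tails. It was above 0 for 30 of 37 members, with a median of 0.13 (range −0.16 to 0.32) beside −0.02 over all genes, of which 43.5% were above 0. By limma 0 members passed (smallest adjusted p = 1) and 0 were under an unadjusted p of 0.05, against 0% and 0.877% of all genes. The median 95% interval of a member reached 0.85 either side. The largest were those of Ndufc2 (0.32, SE 0.377), Ndufa11 (0.31, SE 0.278), Ndufb2 (0.28, SE 0.262) and Ndufv3 (0.26, SE 0.358), and the lowest that of Ndufab1 (−0.16, SE 0.461). The sign rested on the 2 knockdown long-tail libraries: without library 2 the median was −0.21 with 6 of 37 members above 0, and without library 1 it was 0.44 with 36 of 37 above 0. It was 0.00 without knockdown total library 2 (19 of 37) and 0.01 without scrambled long-tail library 1 (19 of 37).

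The 44 subunits of complexes II to V gave the following values in the same fits. In long tails minus total they had medians of 0.34 in knockdown neurons (41 of 44 higher) and 0.24 in scrambled neurons (38 of 44 higher), with 0 called by limma and 2 and 0 at an unadjusted p under 0.05. Their knockdown differences had medians of −0.11 in total RNA and −0.03 in long tails, with 0 called in either (0% of all genes). An unadjusted p under 0.05 was found for 1 and 0 of them, against 6.34% and 8.72% of all genes. The authors' deposited table of long-tail RNA holds 97 genes and that of total RNA 104, both limited to an adjusted p under 0.05. Among the genes of the authors' deposited table for either fraction were 0 complex I members and 0 subunits of complexes II to V. The 97 and 104 genes are a small part of the 23845 with an entry, so these counts of 0 say little about the members.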

How the data were processed

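Poly(A) RNA libraries of 4 groups were analysed. The authors deposited TPM from RSEM, per the file name, rounded to whole numbers, so the unit is a score of relative abundance. Column totals ran from 999689 to 999809. Counts were not used here and the depth is unknown, so no counting intervals were made. The submitters' processing notes name CASAVA, TopHat2, RSEM, DESeq, DESeq2 and mm10; their versions and roles are not stated there. The authors' deposited tables give, per the file headers, a mean of normalized counts (a signal), a log2 fold change, a Wald score and p-values for genes with an adjusted p under 0.05.

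Values were taken as log2(TPM + 1), which understates differences of low genes, for the 13681 genes averaging 1 TPM or more. A limma model (3.58.1, R 4.3.3; trended eBayes, two-sided) with 4 group means gave 5 contrasts, with Benjamini-Hochberg adjustment over all genes at 0.05. The script was tested on simulated data. An exact permutation test of 2 against 2 cannot go below 0.333, so none was run. 27 entries had date-like names and could not be matched. The members, lists and tests were chosen with earlier results of these data known. Genes given in every library were those with the highest and lowest levels (5 each) and, per contrast, the 4 largest differences each way. The values of 1 member are not reported here on their own, though it is in all counts and medians. Sequences came from RefSeq and transcript features from GENCODE M21. Alternatives were pseudocount 0.5, no filter, a mean of at least 5 TPM, quantile normalization, rescaling without Rn45s, eBayes without trend, a replicate block, fits of 4 libraries, leaving out each library and, chosen after seeing the data, centring on the median of genes with at least 20 TPM.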

Additional observations from a re-analysis of the deposited data

How the results depend on the processing

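Counts of called members were 0 in each contrast in every setting that kept 2 libraries in each group used. Where a library was left out, 1 stayed in its group, so only medians of the members are given. Member medians over left-out libraries ran from −0.22 to 0.01 (knockdown in total RNA), −0.29 to 0.36 (knockdown in long tails), 0.040 to 0.69 (long tails minus total, knockdown), 0.10 to 0.30 (the same, scrambled) and −0.21 to 0.44 (interaction). With 1 library left in a group, it was assumed to vary like the others. In the other settings medians kept their sign, except −0.02 for knockdown in long tails with quantile normalization.

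Over all genes, limma called 0 in each contrast. Given first for the knockdown in total RNA and in long-tail RNA, then for the fractions in knockdown and in scrambled neurons, counts were 43, 54, 56 and 33 without a filter, 6, 5, 1 and 2 at a mean of 5 TPM, and 50, 83, 97 and 87 with only the 4 libraries of the contrast. For the knockdown in total and long tails they were 4 and 1 with quantile normalization, 1 and 1 without Rn45s and 1 and 1 with centring. Over left-out libraries they ran from 0 to 1, 0 to 2, 0 to 2125 and 0 to 57. The interaction had 0 in all settings.

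The labels state no pairing of libraries by replicate number. Deviations of same-numbered libraries correlated at −0.116 to 0.759 over the 6 pairs of groups (6810 genes), the negative value between the 2 knockdown groups. With the replicate number as a block, 0 members and 0 genes were called in each contrast and the medians were the same, 0.20 for long tails minus total in scrambled neurons and −0.11 for the knockdown in total RNA. Values are whole numbers and 2 libraries a group, so differences within 0.60 log2 units of 0 could mostly not be told from spread.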

Other observations

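The assembly factors of complex I, which build the enzyme but are not part of it, numbered 18 with an entry. In long tails 10 were higher in knockdown neurons (median 0.04) and 9 in scrambled neurons (median −0.02), against 27% and 23% of all genes (median −0.22 in each), and 16 and 17 of the 18 lay above the all-gene median. Limma called 0 in either, and 1 and 0 had an unadjusted p under 0.05. Tmem261 was at 87 and 135 TPM in long tails, against 82 and 67 TPM in total RNA of knockdown neurons. Acad9, an acyl-CoA dehydrogenase relative needed for assembly, was at 16 and 15 TPM, against 19 and 21 TPM. Those 2 genes lay on opposite sides with no overlap.

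Of 13 regulators of respiratory genes, 0 were higher in long tails in either genotype (medians −0.37 in knockdown and −0.30 in scrambled neurons; 0 called by limma, 5 and 1 at an unadjusted p under 0.05). Over all genes the median was −0.22 in each genotype and 26% and 13.2% had such a p, and 4 of the 13 lay above the all-gene median in each. Yy1 was at 30 and 33 TPM in long tails, against 46 and 51 TPM in total RNA of knockdown neurons, and Gabpa, the DNA-binding subunit of an ETS-family factor, at 11 and 9 TPM, against 17 and 20 TPM. Esrra, the estrogen-related receptor alpha, was at 21 and 17 TPM in knockdown total libraries, against 27 and 26 TPM in scrambled total libraries (log2 difference −0.47, SE 0.157, limma adjusted p = 0.69). Uqcrfs1, the Rieske protein of complex III, was at 146 and 116 TPM in knockdown total libraries, against 101 and 59 TPM in scrambled ones (0.75, SE 0.277, limma adjusted p = 0.745).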
